A study of Gallus gallus with 6 samples.

Results

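PAX3 and PAX7, 2 of the 16828 genes counted in 6 chicken single-cell RNA-sequencing libraries, were followed through the cells in which both are known to act. Their genes are ENSGALG00000030944 (PAX3) and ENSGALG00000043204 (PAX7). Cells were classed by at least 1 transcript of a marker gene: ALX4 or ALX1 for nasal mesenchyme, DMRT2 or MUSTN1 for dermomyotome, SOX10 for neural crest and SOX2 for neural tube. The marker rule used neither PAX3 nor PAX7. The study asked how skeleton-forming cells of different embryonic origin arise. The frontonasal prominence, from which nose and upper beak form, was taken from embryos of Hamburger-Hamilton stage 15 (HH15), HH18 or HH22. Somite tissue, the dorsal part of the trunk at wing level, came from HH12, HH15 or HH20 embryos. All tissue came from untreated Hubbard embryos of both sexes, was dissociated with trypsin and captured with the 10x Chromium 3′ kit. Each stage of a location gave 1 library, so the spread between the 3 libraries of a location includes the stage, and no change with stage could be tested.

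PAX3 and PAX7 are closely related transcription factors with a paired domain and a homeodomain. In the somite both mark the dermomyotome, the dorsal epithelium that supplies muscle progenitors and dermis. PAX3 drives the migration of muscle precursors into the limb, and PAX7 is the better known of the pair for muscle stem cells. In the neural tube both are restricted to the dorsal side, where Sonic hedgehog signalling from the ventral midline holds them off. Both are early regulators of the neural crest, the migratory cells that leave the dorsal neural tube, and in the head they remain active in crest-derived mesenchyme of the nasal region.

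After filters on depth, mitochondrial share and doublets, 1352 to 4469 cells remained in frontonasal libraries and 1779 to 3011 in somite libraries. Total counts per library were between 7702531 and 16725073 unique molecular identifiers (UMIs, each 1 captured transcript), and the median cell held 2230 to 3444.5 UMIs. Pairs of libraries shared 2 to 22 barcodes, at most 0.799% of the smaller library. Levels are given as UMIs per 1000000 UMIs of a class (CPM) with exact Poisson intervals, and detection as the percent of cells with at least 1 UMI with exact binomial intervals. All intervals are at 95% and cover counting error only. Where no cell held a gene, the share still allowed was taken as 3 over the number of cells, which is not the exact bound.

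The marker classes were set against lists of other markers of the same tissue. In dermomyotome cells the summed level of the dermomyotome markers was 1728, 1238 and 870.5 CPM at HH12, HH15 and HH20, against 787.4, 260 and 209.4 CPM in somite cells without any marker. LBX1 and MYF5, which mark cells on their way into muscle, were at 0 in the dermomyotome class of every library. In SOX10 cells of the somite the summed level of the 8 neural crest markers found was 714.5, 647.6 and 609 CPM, against 146.7, 125.1 and 106 CPM in unmarked cells. Neural progenitor markers summed to 594, 557 and 730 CPM in somite SOX2 cells, against 111, 127 and 119 CPM in unmarked cells. In frontonasal ALX cells the nasal mesenchyme list summed to 571, 573 and 936 CPM, against 186, 241 and 480 CPM in unmarked frontonasal cells, with DLX2 at 0. Each of these lists was thus above the unmarked cells in each library of its class. The dermomyotome list includes MEOX1, MEOX2 and TCF15, genes of the early somite as well. PAX1, a sclerotome gene, was at 36.8 and 21.2 CPM in dermomyotome cells at HH12 and HH15, against 29.8 and 16.04 CPM in unmarked cells. At HH20 it was at 5.48 against 17.1 CPM. The class name therefore does not exclude other somite cells. Frontonasal SOX2 cells carried 516.7, 224.9 and 95.15 CPM of surface ectoderm markers at HH15, HH18 and HH22, beside 158, 228.1 and 373.3 CPM of neural progenitor markers. They are called SOX2 cells here, since at HH15 the ectoderm sum was above the neural sum.

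Nasal mesenchyme held both genes at levels above those of the unmarked cells beside it. PAX3 stood at 22.2, 54.8 and 64.8 CPM in nasal mesenchyme at HH15, HH18 and HH22, against 10.5, 17.8 and 8.10 CPM in unmarked frontonasal cells. PAX7 stood at 69.5, 60.3 and 39.6 CPM in nasal mesenchyme, against 24.0, 17.2 and 5.70 CPM in unmarked cells. The ranges did not overlap for either gene, and in each library both were higher in nasal mesenchyme. In edgeR's quasi-likelihood test on sums per library and class, with the library as a block, PAX3 was higher by 1.54 on the log2 scale (SE 0.23, adjusted p = 6.8e-05) and PAX7 by 1.61 (SE 0.20, adjusted p = 1.3e-05). In this comparison 40% of all genes tested were called, so a call alone set neither gene apart. Both calls held in all 15 alternatives that were run. Blood genes were lower in nasal mesenchyme, with all 7 tested rows below the unmarked cells, where globin reached 306500 CPM at HH22. With blood and endothelial cells left out of the unmarked cells the changes were 1.45 for PAX3 (adjusted p = 0.00013) and 1.54 for PAX7 (adjusted p = 2.7e-05).

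The share of nasal mesenchyme cells with PAX3 was higher, and that with PAX7 lower, in the last library than in the first. At least 1 PAX3 UMI was found in 68 of 1064 cells at HH15 (6.39%, interval 5.0 to 8.03), 333 of 2115 at HH18 (15.7%, 14.2 to 17.4) and 120 of 648 at HH22 (18.5%, 15.6 to 21.7). PAX7 was found in 182 of those cells at HH15 (17.1%, 14.9 to 19.5), 334 at HH18 (15.8%, 14.3 to 17.4) and 73 at HH22 (11.3%, 8.93 to 13.96). The intervals at HH15 and HH22 did not overlap for either gene. With each cell thinned to 1500 UMIs, which kept 958 cells at HH15 and all cells of the later stages, the shares were 2.92%, 8.18% and 8.95% for PAX3 and 10.2%, 7.66% and 4.48% for PAX7, in the same order. In frontonasal blood cells, which should lack both genes, PAX3 was found in 0 of 26, 1 of 90 and 2 of 120 cells and PAX7 in 0, 0 and 2, at median depths of 6776, 5997.5 and 11813 UMIs against 2589.5, 2990 and 3456 in nasal mesenchyme. A count of 0 of 26 allows a share of up to 11.5%. Globin took 0.0718%, 0.825% and 9.67% of the UMIs of nasal mesenchyme, and with globin left out of the totals, an alternative chosen after seeing the data, the inclusive class stood at 22.7, 55.0 and 70.2 CPM of PAX3 and 69.1, 60.2 and 42.6 CPM of PAX7. The order of the stages was the same with and without globin.

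Both ALX markers gave the same order of stages. Among cells with ALX4 the PAX7 share was 17.4%, 15.1% and 11.7% at HH15, HH18 and HH22, and the PAX3 share was 6.35%, 16.2% and 18.4%. Among cells with ALX1 the PAX7 share was 21.6%, 21.2% and 12.6% at HH15, HH18 and HH22, and the PAX3 share was 7.60%, 16.6% and 20.8%. Nasal mesenchyme also supplied most of the frontonasal cells that carried the genes. ALX cells made up 60.2%, 75.0% and 82.8% of PAX3 cells and 65.2%, 75.9% and 83.9% of PAX7 cells at HH15, HH18 and HH22. The class was itself large, at 1064 of 2689, 2115 of 4469 and 648 of 1352 frontonasal cells.

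Of 15 tested partners and targets of PAX3 and PAX7, 8 were higher in nasal mesenchyme and 2 lower, where 40% of all genes were called, with a median log2 change of 0.69 against 0.08 over all genes tested. The genes that were higher included TFAP2A (1.27), a crest and ectoderm regulator, EYA1 (0.89), a transcriptional cofactor of placodes, muscle and head mesenchyme, MSX1 (0.94) and MSX2 (0.71), homeobox genes of the face, FGFR4 (1.17), a PAX3 target in muscle progenitors, and ETS1. DACH1 (-0.89) and ZIC1 (-2.21) were lower. Without the HH18 library the calls of EYA1 (0.70, adjusted p = 0.20), FGFR4, ETS1 and DACH1 were lost, and that of MSX2 was lost without any library, while TFAP2A, MSX1 and ZIC1 kept theirs. Of the other PAX genes, PAX6, the eye and brain regulator, was lower (-3.52, adjusted p = 8.4e-09), as was PAX2 (-2.65, adjusted p = 0.0034).

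**Figure D1:**
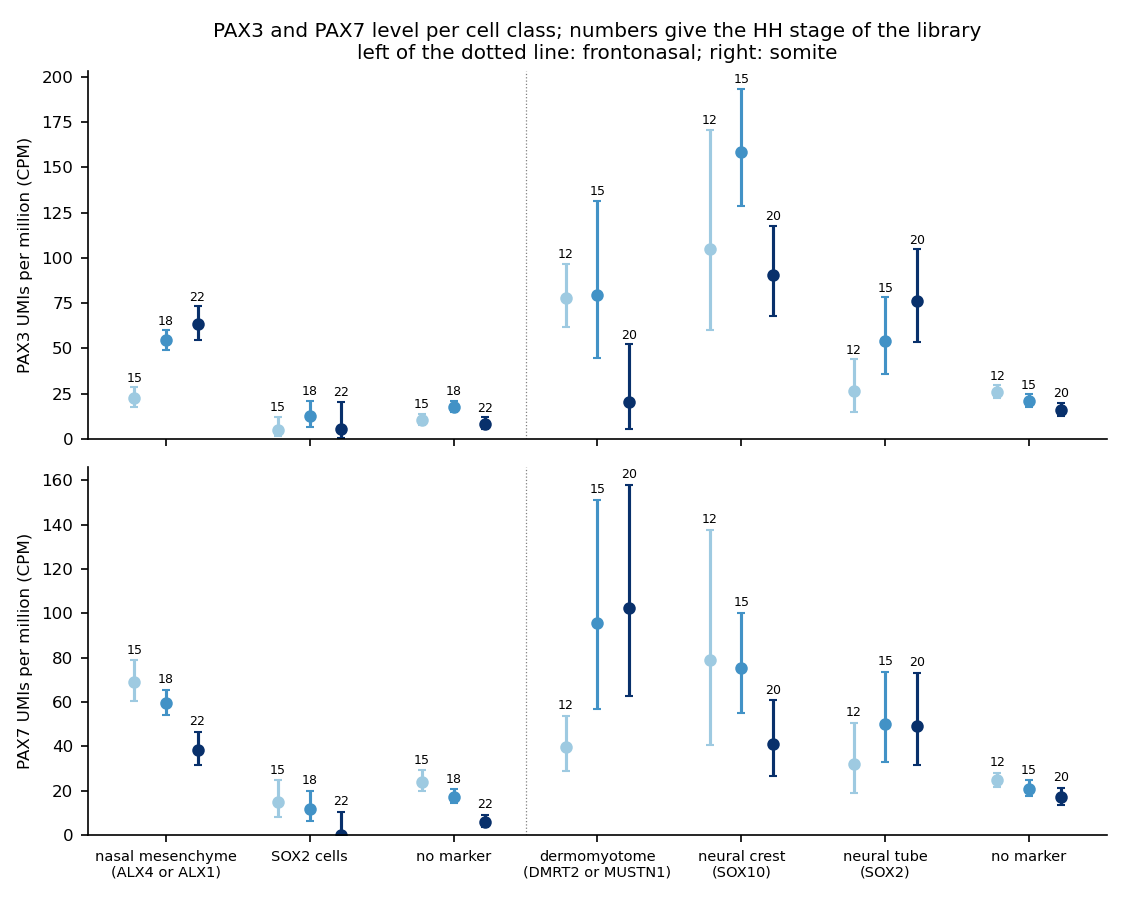
Level of PAX3 (top) and PAX7 (bottom) in CPM in each cell class, with 1 point per library labelled by its HH stage and bars for the exact 95% Poisson interval; cells may fall in several classes. In nasal mesenchyme PAX3 lay at 22.7, 54.5 and 63.4 CPM and PAX7 at 69.1, 59.7 and 38.4 CPM, while in dermomyotome PAX3 was at 20.5 CPM and PAX7 at 102 CPM at HH20.

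Dermomyotome cells of the somite also held more of both genes than their unmarked neighbours. PAX3 stood at 78.3, 79.7 and 16.4 CPM in dermomyotome cells at HH12, HH15 and HH20, against 25.5, 19.2 and 16.5 CPM in unmarked somite cells. PAX7 stood at 38.7, 95.6 and 110 CPM in dermomyotome cells, against 24.0, 19.5 and 18.2 CPM in unmarked cells. PAX7 was higher in dermomyotome in each library with no overlap, whereas PAX3 at HH20 was level with the unmarked cells. By edgeR, PAX3 was higher by 1.59 (SE 0.32, adjusted p = 0.0084) and PAX7 by 1.57 (SE 0.31, adjusted p = 0.0073), where 0.971% of the 5559 genes tested were called. These calls were less stable than those of nasal mesenchyme and held in 10 of 15 alternatives for each gene. DESeq2 gave an adjusted p of 0.084 for PAX3. Without the HH12 library the PAX3 change was 1.34 (adjusted p = 0.84), without the HH15 library it was 1.42 (adjusted p = 0.17), and PAX7 without the HH15 library changed by 1.27 (adjusted p = 0.29).

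Detection in dermomyotome followed the levels. PAX3 was found in 52 of 254 cells at HH12 (20.5%, interval 15.7 to 26.0), 10 of 59 at HH15 (16.9%, 8.44 to 29.0) and 4 of 50 at HH20 (8.0%, 2.22 to 19.2). PAX7 was found in 35 of them at HH12 (13.8%, 9.79 to 18.6), 15 at HH15 (25.4%, 15.0 to 38.4) and 13 at HH20 (26.0%, 14.6 to 40.3). These intervals overlap between stages, since the class was small after HH12. Thinned shares were 10.2%, 10% and 4.0% for PAX3 and 5.51%, 14% and 20% for PAX7. Somite blood cells gave PAX3 in 0 of 34 cells at HH15 and 0 of 99 at HH20, which allows up to 8.82% and 3.03%, and PAX7 in 1 and 2 of them, at median depths of 4715 and 7610 UMIs against 2587 and 3311.5 in dermomyotome.

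The 2 markers of the class differed in what they picked. Cells with DMRT2, a dermomyotome regulator that lies downstream of PAX3 in the mouse, had PAX3 in 28 of 85 cells at HH12 (32.9%), 2 of 16 at HH15 and 1 of 21 at HH20, and PAX7 in 12, 7 and 7 of those cells. Cells with MUSTN1, a small nuclear protein of muscle and skeletal tissue, had PAX3 in 31 of 187, 8 of 43 and 3 of 30 cells and PAX7 in 25, 8 and 6. With MUSTN1 as the sole marker the PAX7 change was 1.22 (adjusted p = 0.092). Muscle markers summed to 23.2, 21.2 and 745 CPM in dermomyotome cells at HH12, HH15 and HH20, and their part in the stage change was not tested beyond leaving out cells that carried one, given with the PAX7 share below.

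Among 5 tested dermomyotome markers 4 were higher in the class (median log2 change 1.53, against 0.00 over all genes), among them TCF15 (1.81, adjusted p = 3.1e-06), the paraxis gene of epithelial somites, MEOX1 (1.57) and MEOX2 (1.53). Of 5 tested neural progenitor genes 2 were lower, PAX6 (-2.85, adjusted p = 0.00097) and HES5 (-4.01, adjusted p = 0.0015), and of 6 tested crest markers 1 was lower, TFAP2A (-3.06, adjusted p = 0.005). PAX1, the sclerotome regulator, was read at 36.8, 21.2 and 5.48 CPM in dermomyotome cells, against 29.8, 16.04 and 17.1 CPM in unmarked somite cells. Of 14 tested partners and targets 1 was called higher and 1, TFAP2A, lower, where 0.971% of all genes were called (median -0.47, against 0.00 over all genes). The calls of PAX6 (-2.30, adjusted p = 0.57), MEOX2 and TFAP2A were lost without the HH12 library, and those of MEOX2 and TFAP2A also without the HH15 library, while TCF15 and MEOX1 kept theirs.

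Neural crest cells of the somite libraries had the highest mean PAX3 level of the 7 classes summed. PAX3 stood at 106, 158 and 93.0 CPM in SOX10 cells at HH12, HH15 and HH20, against 25.5, 19.2 and 16.5 CPM in unmarked somite cells. PAX7 stood at 77.8, 71.3 and 41.9 CPM in SOX10 cells, against 24.0, 19.5 and 18.2 CPM in unmarked cells. The ranges of the groups did not overlap for either gene. PAX3 was higher by 2.53 (edgeR, SE 0.29, adjusted p = 2.1e-06) and PAX7 by 1.41 (SE 0.31, adjusted p = 0.005), in a comparison that called 11.2% of genes. The PAX3 call held in 13 of 13 alternatives. PAX7 lost its call without the HH15 library (1.13, adjusted p = 0.28).

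PAX3 was found in 11 of 40 SOX10 cells at HH12 (27.5%), 74 of 204 at HH15 (36.3%, interval 29.7 to 43.3) and 43 of 160 at HH20 (26.9%, 20.2 to 34.4). PAX7 was found in 8 (20%), 34 (16.7%, 11.8 to 22.5) and 17 (10.6%, 6.31 to 16.5) of these cells. After thinning the shares were 17.5%, 24.0% and 12.5% for PAX3 and 10%, 9.29% and 6.25% for PAX7. All 6 tested crest markers were higher in the class: the endothelin receptor gene EDNRB (4.51), TFAP2A (3.204), TFAP2B (3.03), SOX8, the neuregulin receptor gene ERBB3 and ETS1. Of the dorsal neural tube list 4 genes could be tested, and 3 were higher: MSX1 (1.89), MSX2 (1.58) and WNT1 (2.78). The 14 genes found of that list summed to 531, 154 and 63.8 CPM in crest at HH12, HH15 and HH20, against 101, 105.5 and 74.6 CPM in unmarked cells, with WNT1 at 0 in crest at HH20. Among 14 tested partners and targets of the pair 5 were higher and 3, TGFB2 among them, lower, where 11.2% of all genes were called. The median was 0.61, against 0.01 over all genes. The 5 that were higher, TFAP2A, ETS1, MSX1, MSX2 and WNT1, are the crest and dorsal genes already named, so this count adds no separate result. SOX8 and ETS1 lost their calls without the HH12 or the HH15 library, MSX2 (0.87, adjusted p = 0.25) without the HH12 library and WNT1 without the HH15 library. In frontonasal libraries SOX10 was found in just 20, 9 and 2 cells, with PAX3 in 3, 2 and 1 and PAX7 in 3, 2 and 0 of them, too few for a sum.

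Neural tube cells of the somite libraries stood between the crest and the unmarked cells. PAX3 stood at 27.9, 34.2 and 77.1 CPM in SOX2 cells at HH12, HH15 and HH20, against 25.5, 19.2 and 16.5 CPM in unmarked cells. PAX7 stood at 27.9, 41.1 and 53.0 CPM in SOX2 cells, against 24.0, 19.5 and 18.2 CPM in unmarked cells. At HH12 the interval of each gene in SOX2 cells, 15.6 to 46.1 CPM, took in the unmarked value. Both genes were higher in SOX2 cells in each library with no overlap, but neither passed the test: the change was 1.08 for PAX3 (edgeR, adjusted p = 0.06) and 0.86 for PAX7 (adjusted p = 0.15), where 5.7% of genes were called. PAX3 passed in 3 of 13 alternatives and PAX7 in 1. Detection was 11.4%, 14.7% and 19.1% for PAX3 and 14.04%, 10.7% and 14.7% for PAX7 among 114, 150 and 136 cells, with thinned shares of 4.39%, 9.86% and 8.82% and of 6.14%, 4.23% and 10.3%. The neural genes DBX2, NKX6-1 (2.72), PAX6 (2.30) and HES5 were higher in the class, as were MSX1 (1.74) on the dorsal side and NKX6-2 (2.48) on the ventral side.

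Frontonasal SOX2 cells, which carried neural and ectoderm markers, had little of either gene. PAX3 stood at 5.49, 8.33 and 3.66 CPM in them at HH15, HH18 and HH22, against 10.5, 17.8 and 8.10 CPM in unmarked frontonasal cells. PAX7 stood at 14.3, 8.33 and 0 CPM, against 24.0, 17.2 and 5.70 CPM. At HH15 and HH22 the intervals of both genes in SOX2 cells took in the unmarked values. At HH22 no PAX7 UMI was found in 74 SOX2 cells, which allows a share of up to 4.05%. Both genes were lower than in unmarked cells in each library, though not past the test (PAX3 -1.11, adjusted p = 0.22, and PAX7 -0.96, adjusted p = 0.18, by edgeR, with 4.42% of genes called). Nasal mesenchyme exceeded SOX2 cells by 2.66 for PAX3 (adjusted p = 4.4e-05) and 2.57 for PAX7 (adjusted p = 7.2e-06), in a comparison that called 43.4% of genes, and both calls held in 14 of 14 alternatives.

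SOX2 cells of the head were then set against SOX2 cells of the trunk. PAX3 was lower in frontonasal than in somite SOX2 cells (-2.79, SE 0.52, edgeR adjusted p = 0.02), where 2.15% of genes were called. PAX7 was at -2.07 (SE 0.54, adjusted p = 0.099). The difference between the effects of the SOX2 class in the 2 locations, tested itself, was -2.20 for PAX3 (SE 0.50, adjusted p = 0.015) and -1.88 for PAX7 (SE 0.45, adjusted p = 0.018), with 1.01% of genes called. PAX3 passed in 10 of 16 alternatives and PAX7 in 9. Without the HH20 somite library the values were -1.64 (adjusted p = 0.17) and -1.68 (adjusted p = 0.10), and with DESeq2 they were -2.18 (adjusted p = 0.16) and -1.93 (adjusted p = 0.15). The surface ectoderm markers KRT18, KRT19 and CLDN1 differed in the opposite direction in the same contrast, and MSX1 in the same direction (-4.32, adjusted p = 1.7e-08). The part that ectoderm cells within the SOX2 class had in these values was not tested. Location and the sampled stages cannot be told apart, as only HH15 is common to both.

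**Figure D2:**
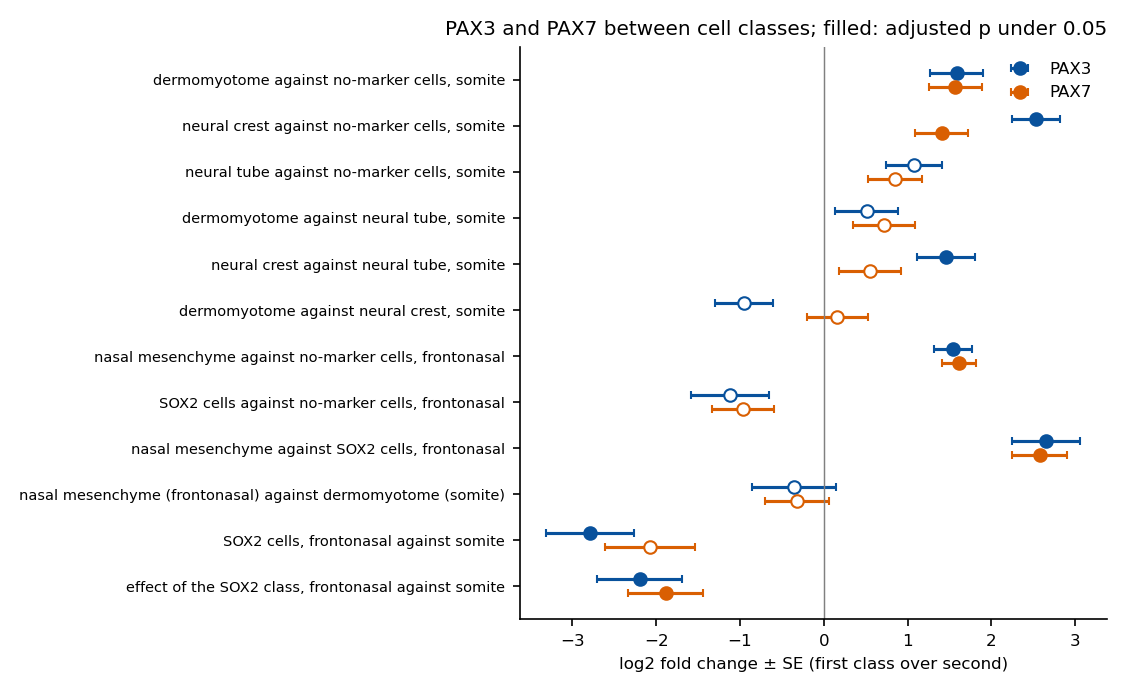
Log2 fold change of PAX3 and PAX7 between cell classes, the class named first over the second, with bars for 1 standard error and filled points for an adjusted p under 0.05 (edgeR, sums of 3 libraries per class). PAX3 and PAX7 had similar values in nasal mesenchyme (1.54 and 1.61) and dermomyotome (1.59 and 1.57), and PAX3 was further from 0 in neural crest (2.53) than PAX7 (1.41).

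Ordered by their means, the PAX3 levels were 119 ± 34.2 CPM in neural crest, 58.1 ± 36.1 in dermomyotome, 47.3 ± 22.3 in nasal mesenchyme and 46.4 ± 26.8 in neural tube, then 20.4 ± 4.58 in unmarked somite cells, 12.1 ± 5.04 in unmarked frontonasal cells and 5.83 ± 2.35 in frontonasal SOX2 cells (SD, n = 3 libraries each). For PAX7 the order was 81.3 ± 37.5 CPM in dermomyotome, 63.7 ± 19.1 in neural crest, 56.4 ± 15.3 in nasal mesenchyme and 40.7 ± 12.6 in neural tube, then 20.6 ± 3.01, 15.7 ± 9.27 and 7.53 ± 7.16 in the unmarked somite, unmarked frontonasal and frontonasal SOX2 cells (SD, n = 3). For PAX3 the crest values (93.0 to 158 CPM) lay above all dermomyotome values (16.4 to 79.7 CPM), though the test did not pass, and the other neighbours among the first 4 classes overlapped. For PAX7 the first 4 classes overlapped with their neighbours. Neural tube and unmarked somite cells did not overlap for either gene. PAX3 was higher in crest than in neural tube (1.46, SE 0.34, edgeR adjusted p = 0.0071, with 11.2% of genes called), and this call was lost without the HH12 library (1.17, adjusted p = 0.084) or the HH15 library (1.02, adjusted p = 0.30). The 3 contrasts that did not pass were dermomyotome against crest (PAX3 -0.95, adjusted p = 0.11, PAX7 0.16, adjusted p = 0.85, with 7.05% of genes called), dermomyotome against neural tube (0.51 and 0.72, adjusted p = 0.61 and 0.36, with 6.1% called) and PAX7 in crest against neural tube (0.55, adjusted p = 0.36).

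Nasal mesenchyme was also compared with dermomyotome directly, 3 libraries against 3. PAX3 differed by -0.36 (SE 0.50, edgeR adjusted p = 0.80) and PAX7 by -0.32 (SE 0.38, adjusted p = 0.76), in a comparison that called 2.78% of 7796 genes. The direction turned when the HH15 frontonasal library (0.03) or the HH12 somite library (0.05) was left out for PAX3, and without the HH20 somite library (0.05) for PAX7. The same test separated the lineages by other genes. TFAP2B (6.57, adjusted p = 1e-04) and TFAP2A (5.53, adjusted p = 0.00024) were higher in nasal mesenchyme, and MEOX1 (-6.08, adjusted p = 0.00051), TCF15 (-4.55, adjusted p = 2.7e-05) and PAX1 (-6.49, adjusted p = 0.0018) were lower.

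Cells with UMIs of both genes were then counted and set against the number expected if the genes fell on cells independently. In nasal mesenchyme 19 cells at HH15, 91 at HH18 and 37 at HH22 held both, against 11.6, 52.6 and 13.5 expected, ratios of 1.63, 1.73 and 2.74. After thinning, which removes differences in depth between cells, 6, 23 and 9 cells held both, against 2.86, 13.3 and 2.60 expected. The excess was thus present in each frontonasal library with and without thinning. Ratios above 1 were not particular to nasal mesenchyme. Frontonasal cells with none of the 6 class markers gave higher ratios of 4.96, 2.72 and 3.96, on 12, 13 and 2 cells with both genes. After thinning their ratios were 7.08, 4.22 and 9.67, on 4, 7 and 1 cells. The expected number treats a group as uniform, and thinning evens depth but not the mix of cell types. Unmarked cells include types nearly without the genes, such as blood, with PAX3 in 0, 1 and 2 cells. A mix alone can put the ratio above 1, so the ratios of unmarked cells and of nasal mesenchyme are not directly comparable. The part of such mixing was not tested. Among PAX3 cells 27.9%, 27.3% and 30.8% also held PAX7, against 17.1%, 15.8% and 11.3% of all nasal mesenchyme cells. Most cells with a gene had a single UMI of it, 63 of 68 PAX3 cells and 152 of 182 PAX7 cells at HH15, so that a cell without a UMI cannot be called negative.

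In dermomyotome both genes were found in 8 cells at HH12, 1 at HH15 and 1 at HH20, against 7.17, 2.54 and 1.04 expected. After thinning 2, 0 and 1 cells held both, against 1.43, 0.70 and 0.40 expected. These counts were too few to show an excess or its absence. In neural crest 3, 15 and 9 cells held both, against 2.20, 12.3 and 4.57 expected, and in neural tube 3, 6 and 10 cells, against 1.82, 2.35 and 3.82. The ratio was above 1 in each library of crest (1.36, 1.22 and 1.97) and of neural tube (1.64, 2.56 and 2.62), on few cells. Somite cells with none of the 6 class markers, again a mix of cell types, gave ratios of 2.67, 4.02 and 3.22. These rested on 32, 20 and 11 cells with both genes. After thinning, crest held 1, 4 and 4 such cells, against 0.70, 4.09 and 1.25 expected, and neural tube 0, 1 and 3, against 0.31, 0.59 and 1.24. Differences between classes in this excess were not tested.

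**Figure D3:**
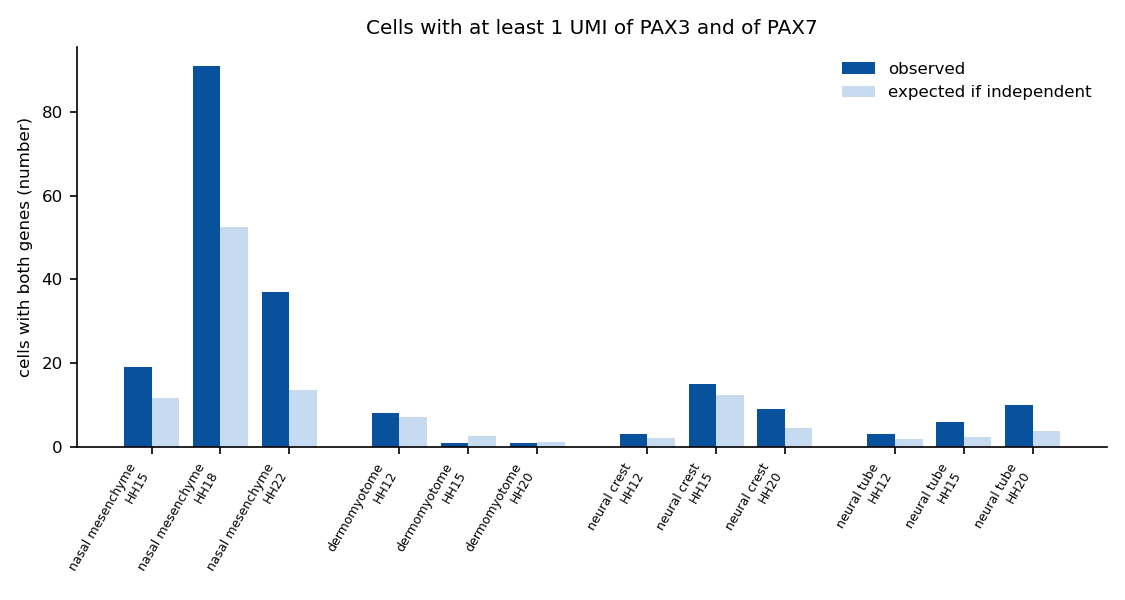
Number of cells with at least 1 UMI of PAX3 and of PAX7 (dark bars) beside the number expected from the share of cells with each gene (pale bars), per class and library. Nasal mesenchyme held 91 such cells at HH18 against 52.6 expected, while dermomyotome held 8 at HH12 against 7.17.

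The balance of the pair within a class was measured as the PAX7 share of the UMIs of both genes. In nasal mesenchyme PAX7 gave 219 of the UMIs of the pair at HH15 (75.8%, interval 70.4 to 80.6), 434 at HH18 (52.4%, 48.9 to 55.8) and 108 at HH22 (37.9%, 32.2 to 43.8). In dermomyotome it gave 40 at HH12 (33.1%, 24.8 to 42.2), 18 at HH15 (54.5%, 36.4 to 71.9) and 20 at HH20 (87.0%, 66.4 to 97.2). The share was therefore lower at each later stage in nasal mesenchyme and higher at each later stage in dermomyotome, and the intervals of the first and last stages did not overlap in either. With cells that carried a muscle marker left out of dermomyotome, an alternative chosen after seeing the data, it was 30.9%, 56.7% and 86.4%. The HH20 value rests on 23 UMIs in 47 cells, 3 of them PAX3. With a marker minimum of 2 UMIs the dermomyotome share was 34.1%, 16.7% and 100%, on 14, 1 and 4 PAX7 UMIs beside 27, 5 and 0 of PAX3, so the HH15 library no longer lay between the others. The fall was not particular to nasal mesenchyme. Frontonasal cells with none of the 6 class markers gave 69.5%, 49.2% and 41.3% at HH15, HH18 and HH22. Frontonasal SOX2 cells gave 72.2% and 50% at HH15 and HH18, with 1 UMI of the pair at HH22. Somite cells with none of these markers gave 48.7%, 49.8% and 51.5% at HH12, HH15 and HH20. Those of them with MEOX1, MEOX2 or TCF15 gave 41.5%, 48.7% and 54.5%.

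Crest and neural tube showed no comparable shift. PAX7 made up 42.3%, 31.1% and 31.1% of the pair in crest at HH12, HH15 and HH20, and 50%, 54.5% and 40.7% in neural tube, with overlapping intervals throughout. Averaged over stages the share was 55.3 ± 19.1% in nasal mesenchyme, 58.2 ± 27.1% in dermomyotome, 34.8 ± 6.46% in crest and 48.4 ± 7.04% in neural tube (SD, n = 3). Of 5 pairs of classes compared by exact two-sided permutation tests none passed. Nasal mesenchyme differed from dermomyotome by -2.84 percentage points (exact p = 0.90) and from crest by 20.5 (exact p = 0.20, adjusted p = 0.63 over the 5 pairs). The smallest p these designs allow is 0.10 for 3 against 3 libraries and 0.25 for 3 pairs within libraries.

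**Figure D4:**
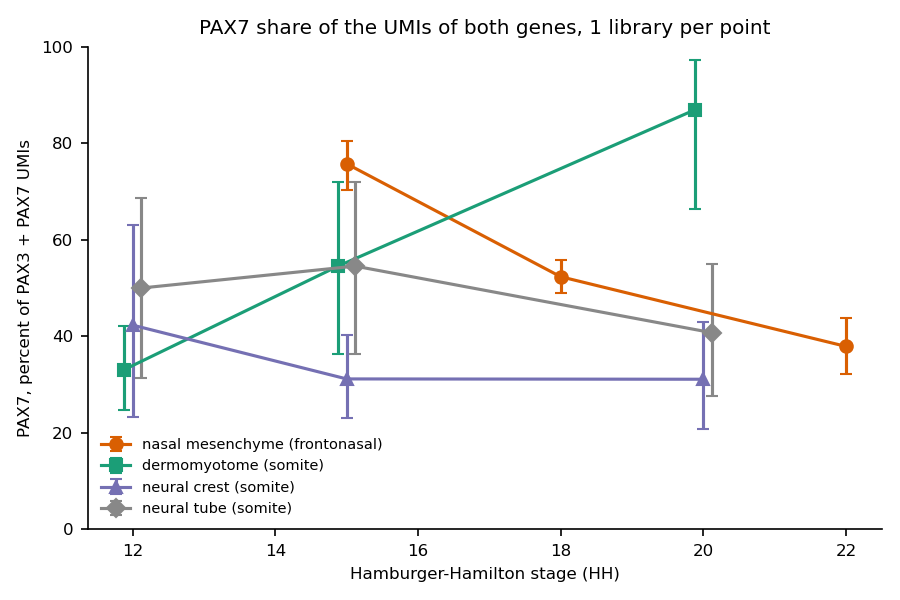
PAX7 as a percent of PAX3 and PAX7 UMIs per class against HH stage, 1 library per point, with exact 95% binomial intervals; points of a stage are shifted slightly sideways. The share was 75.8% at HH15 and 37.9% at HH22 in nasal mesenchyme, and 33.1% at HH12 and 87.0% at HH20 in dermomyotome.

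Within each class, cells with at least 1 UMI of either gene were next compared with cells without one, with PAX3 and PAX7 left out of the genes tested. Cells with a UMI were deeper, for example 4371, 3813 and 3000 UMIs at the median in neural tube, against 4073, 2863.5 and 2942 UMIs in cells without. The medians were 3619.5 against 2025 in dermomyotome at HH15 and 3495 against 2841 in nasal mesenchyme at HH18. The comparisons called few genes by edgeR: 1 of 1436 tested in dermomyotome (0.0696%), 6 of 2789 in crest (0.215%), 17 of 2550 in neural tube (0.667%), 53 of 7935 in nasal mesenchyme (0.668%) and 14 of 4048 in frontonasal SOX2 cells (0.346%). DESeq2 called 0, 0, 1, 3 and 3 genes, counted without regard to the edgeR calls, and edgeR without the library as a block called 0 in each class. At an unadjusted p under 0.05 edgeR gave 54 of 1436, 131 of 2789, 151 of 2550, 538 of 7935 and 240 of 4048 genes. In dermomyotome and crest this was below the share that the threshold passes without any change, and elsewhere little above it.

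In neural tube cells, a dorsal gene was higher and a ventral gene lower beside PAX3 or PAX7. MSX1 was the only gene of the dorsal list that could be tested, and NKX6-1 the only one of the ventral list. The progenitor genes DBX2 (0.85), HES5 (-0.41) and PAX6 (-0.055) were tested and not called. MSX1, a dorsal homeobox gene, stood at 265, 90.1 and 95.7 CPM in cells with PAX3 or PAX7 at HH12, HH15 and HH20, against 57.1, 25.8 and 26.7 CPM in cells without. NKX6-1, a homeobox gene of the ventral progenitors, gave 0, 0 and 1 UMI in cells with PAX3 or PAX7, against 33, 18 and 32 UMIs in cells without. The groups did not overlap for either gene. MSX1 was higher by 2.03 (SE 0.34, adjusted p = 4e-06). The ratio of NKX6-1 over the 3 libraries was 0.0402 (exact interval 0.00101 to 0.23), and its adjusted p was 1.8e-05. DESeq2 gave adjusted p-values of 0.30 for MSX1 and 0.44 for NKX6-1. Without the HH12 library the MSX1 change was 1.75 (adjusted p = 0.18), and after thinning it was 0.58 (adjusted p = 0.996), where NKX6-1 was too low to be tested.

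CRABP-I, a retinoic acid binding protein gene, was called higher by 2.13 in the same cells (edgeR adjusted p = 3.3e-37), but unevenly. It stood at 640, 4312 and 531 CPM in cells with PAX3 or PAX7, against 121, 429 and 454 CPM in cells without. At HH20 the groups were thus close, and DESeq2 gave an adjusted p of 0.999. SMPD3 (1.33), FKBP11 (1.27) and NEO1 (1.24), the neogenin receptor gene, were also higher in each library. The SMPD3 call was lost with any library left out (1.02 to 1.44), that of NEO1 without HH12 (1.11) or HH15 (0.90), and that of FKBP11 without HH12 (1.09) or HH15 (1.20). ENSGALG00000011349 gave 0, 0 and 1 UMI in cells with PAX3 or PAX7, against 29, 21 and 88 in cells without, and it was the gene that DESeq2 called (adjusted p = 0.026). SLIT3 (-1.54), a guidance ligand gene, VTN (-1.50), the vitronectin gene, and ENSGALG00000012194 were lower, and each of these calls was lost with any library left out.

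In neural crest cells MSX1 was again the gene that was higher, and the other 5 calls were globin genes that were lower. MSX1 stood at 236, 93.8 and 94.5 CPM in crest cells with PAX3 or PAX7, against 66.4, 30.1 and 8.38 CPM in those without (2.16, SE 0.41, edgeR adjusted p = 0.0026). The groups did not overlap. After thinning 9 crest cells with PAX3 or PAX7 were left at HH12, under the minimum of 10 cells, so that test used HH15 and HH20 alone. Its change was 3.60 (edgeR adjusted p = 6e-05). Unthinned and without the HH20 library the MSX1 change was 1.69 (adjusted p = 0.995), and DESeq2 on all libraries gave an adjusted p of 0.68. In dermomyotome the single call was TMSB4X, an actin-binding peptide gene (0.31, SE 0.06, adjusted p = 0.026), with 5309, 18580 and 13330 CPM against 4431, 15440 and 8855 CPM, and thinning gave 0.10 (adjusted p = 0.91).

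Within nasal mesenchyme the changes were small. EPHA4, an ephrin receptor gene, stood at 55.7, 106 and 141 CPM in cells with PAX3 or PAX7 at HH15, HH18 and HH22, against 45.6, 56.4 and 76.9 CPM in those without (0.75, SE 0.12, edgeR adjusted p = 8e-05). TFAP2A (0.54), ELK3 (0.49), GPC3 (0.47) and GJA1 (0.42), the connexin 43 gene, were also higher in each library. VEGFD (-1.07) and COL4A1 (-1.03), a basement membrane collagen gene, were lower, and these 2 were also called by DESeq2 (adjusted p = 0.005 each). MSX1 (0.53, adjusted p = 0.025) and MSX2 (-0.97, adjusted p = 0.0075) went in opposite directions. All 6 tested blood genes were lower in cells with PAX3 or PAX7, HBBR by -1.79 for instance, and their part in the other changes was not tested. Without the HH18 library EPHA4 was at 0.56 (adjusted p = 0.61), and 13 genes were called in place of 53. With cells thinned to 1500 UMIs, 5 genes were called.

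In frontonasal SOX2 cells, of which 13 at HH15 and 14 at HH18 had PAX3 or PAX7, the genes that were higher included epithelial ones. PCP4 stood at 1942 and 329 CPM in cells with PAX3 or PAX7, against 207 and 72.5 CPM in those without (2.90, SE 0.25, edgeR adjusted p = 5.3e-27). With 2 libraries this p-value does not measure the spread between them. DESeq2 called 3 genes in this class, and the fit without the library as a block called 0. TFAP2A (3.29), SCIN (3.60), PDGFA (2.56) and VEGFD (2.70) were higher, and among surface ectoderm markers EPCAM and KRT19 were called higher, 2 of 4 tested. SCIN rested on 9 UMIs against 8 and TFAP2A on 8 against 9. Cells with PAX3 or PAX7 were deeper, at medians of 6141 and 4075 UMIs against 3993.5 and 3247. Thinning left 2 and 6 of them, under the minimum of 10 cells, so these changes were not tested at equal depth. CKB (-1.67), FABP7 (-1.26), a radial glia gene, and CCND1 (-1.05) were lower.

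**Figure D5:**
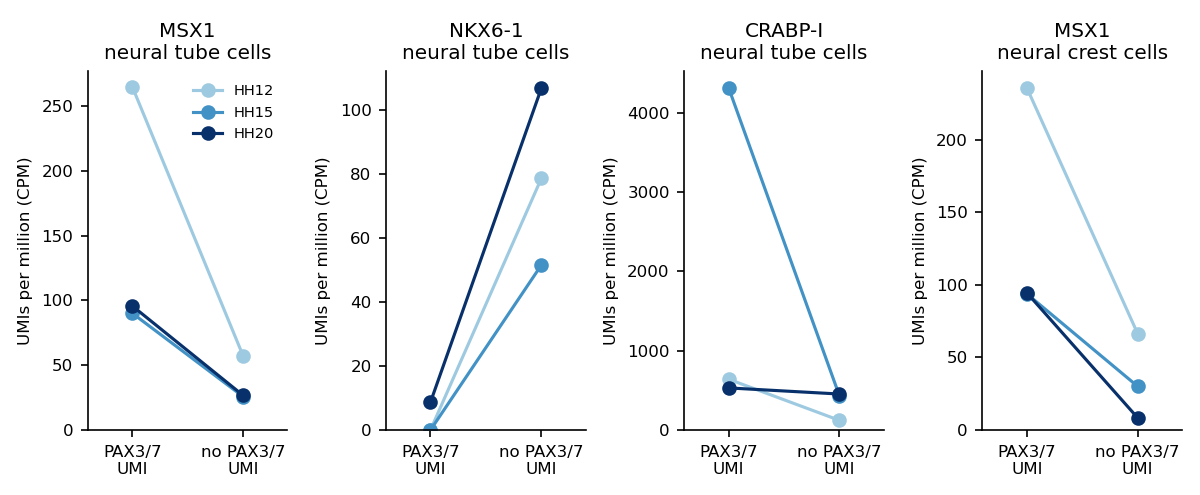
CPM of MSX1, NKX6-1 and CRABP-I in somite neural tube cells and of MSX1 in neural crest cells, with PAX3 or PAX7 UMIs (left point) and without (right point), 1 line per library by HH stage. MSX1 was higher on the left in each library, NKX6-1 was at 0, 0 and 8.70 CPM on the left, and CRABP-I was close at HH20 (531 and 454 CPM).

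PAX3 and PAX7 were not confined to marked cells. In somite libraries 70.9%, 53.8% and 50.4% of PAX3 cells and 75.4%, 65.4% and 62.8% of PAX7 cells at HH12, HH15 and HH20 had no UMI of DMRT2, MUSTN1, SOX10 or SOX2. Among all somite cells 2608 of 3011, 2614 of 3004 and 1452 of 1779 had none of these 4. With ALX4 and ALX1 counted too, 179 of 258, 108 of 208 and 64 of 139 PAX3 cells had no marker. For PAX7 cells these were 169 of 228, 111 of 179 and 72 of 129, and for all somite cells 2527, 2411 and 1347. The part of PAX3 cells that was dermomyotome was 20.2%, 4.81% and 2.88% and that of crest was 4.26%, 35.6% and 30.9%. Of all cells in these libraries 254, 59 and 50 were dermomyotome and 40, 204 and 160 were crest. The change of these parts with stage thus includes the change in class size. The next groups are of somite cells with none of the 6 class markers. Those with MEOX1, MEOX2 or TCF15, genes of the early somite and dermomyotome, held PAX3 in 131 of 1436, 29 of 653 and 24 of 359 cells and PAX7 in 96, 33 and 30. Sclerotome cells with PAX1 or NKX3-2, the ventral part of the somite that forms cartilage, held PAX3 in 6 of 422, 2 of 200 and 0 of 132 cells and PAX7 in 6, 1 and 2 of them. Sclerotome cells were shallower than blood cells, at medians of 1940 and 2795.5 UMIs against 4715 and 7610 UMIs at HH15 and HH20. After thinning PAX7 was found in 1 of 158 and 2 of 132 sclerotome cells at HH15 and HH20, against 1 of 32 and 0 of 99 blood cells, and PAX3 in 2 and 0 sclerotome cells, against 0 and 0 blood cells. A difference between the 2 was not detectable at this depth. Single UMIs of low genes leave many cells of a class unmarked, so these shares describe what was captured.

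The other PAX genes in the tables were set beside the pair. PAX6 stood at 266, 221 and 181 CPM in neural tube cells at HH12, HH15 and HH20 and at 91.1, 148 and 103 CPM in frontonasal SOX2 cells at HH15, HH18 and HH22. PAX5 had no UMI in any class sum. PAX2 was highest in unmarked somite cells at HH12, at 37.9 CPM, and at most 5.48 CPM in dermomyotome, crest and neural tube.

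Likeness to each gene was measured as Pearson's r of log2(CPM + 1) over the 21 class sums of the 6 libraries, among 3925 genes that reached 50 CPM in at least 1 sum. The sums share libraries and differ in depth, so r is a description. Small sums rest on few UMIs: in frontonasal SOX2 cells at HH22, 59 cells, PAX3 had 1 UMI (3.66 CPM) and PAX7 0. Among the genes below, the lowest values of PTTG1IP (3.66 CPM), SPPL2A and ENSGALG00000012121 (7.32 CPM each) were of that order. The weight of such sums in r was not tested. PAX3 was most like PAXBP1 (0.85), whose mouse protein binds PAX3 and PAX7, then LIMD1 (0.83), DACH2 (0.83), NRP2 (0.82), GXYLT1 (0.78), ENSGALG00000027159 (0.77), STX16 (0.77) and EIF4EBP3 (0.77). PAX7 was most like GFPT2 (0.85), ENSGALG00000011296 (0.83), ENSGALG00000046098 (0.83), ENSGALG00000012121 (0.83), SPPL2A (0.81), IGDCC3 (0.81), PTTG1IP (0.81) and VCL (0.80). PAX3 and PAX7 themselves had r = 0.75, rank 15 among the genes like PAX3 and rank 23 among those like PAX7.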

How the data were processed

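The authors deposited a matrix of UMI counts per gene and cell for each of the 6 libraries; per the labels, reads were aligned and counted with Cell Ranger against GRCg6a, with 3′ ends of genes extended. Limb libraries, chromatin data and protein data of the study were not analysed here. Cells were removed above 4 times the mean or below 0.2 times the median UMIs, above 3 median absolute deviations and 0.1 in mitochondrial fraction, or below 0.15 genes per UMI. The mitochondrial rule spared cells above the median UMIs, and the last rule applied only to cells with a high gene count for their library. Simulated-doublet scores (scanpy 1.11.5) removed 15 to 172 cells per library. Blood cells held at least 20% globin UMIs. A class needed 1 UMI of its marker. For the sums, unmarked cells had no UMI of the markers used at their location. These were DMRT2, MUSTN1, SOX10 and SOX2 in somite and ALX4, ALX1, SOX10 and SOX2 in frontonasal libraries. For sums and for the PAX7 share each cell counted in 1 class only, and cells with markers of several classes were left out; detection used all cells of a marker.

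Sums of at least 10 cells per library and class were tested with edgeR 4.0.16 (quasi-likelihood, TMM, R 4.3.3) with the library as a block and Benjamini-Hochberg adjustment over all genes, at a threshold of 0.05; direct comparisons of classes between locations had no block. Sums of 1 library come from 1 pool of cells, and their deviations from class means correlated (r = 0.138 to 0.633 over 27 pairs). Each library was an independent sample of pooled embryos of 1 stage. With the block, the p-values set the differences between classes against their variation between libraries, stage included. In the comparisons without a block they were set against the spread between libraries, stage included. edgeR shares information on this variation between genes, so with so few libraries a p-value does not measure the spread of a single gene. A very small p-value, such as that of CRABP-I in neural tube, is thus no measure of agreement between libraries. Genes were named by list membership and, for cells with against without PAX3 or PAX7, as the 5 called genes in each direction with the largest change, a mean of at least 50 CPM in a group and the same direction in each library. Simulated counts recovered 82.8% of genes changed by 2 on the log2 scale in the dermomyotome comparison and 17.9% for the SOX2 effect between locations. For a change of 1 these were 15.0% and 0.952%. Recovery of a change of 1 was 15.9% for neural tube against unmarked cells and 9.35% for dermomyotome against crest. The simulation gave all genes the same dispersion and had no library effect, unlike the data. Shares were thinned to 1500 UMIs per cell with a fixed seed.

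Alternatives were DESeq2 1.42.0 with its size factors, no filter on low counts, no block, a marker minimum of 2 UMIs, single markers, cells of 2 classes kept, doublets kept, no cell filters, thinning, blood and endothelium left out, and each library left out. Members and gene lists were chosen with earlier results of these data known. List genes not found by symbol, FOXD3, SNAI2, MITF and HBAD among them, were not analysed here, nor were sequences. Some genes of the lists count in their totals and are not reported by name here.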

Additional observations from a re-analysis of the deposited data

Results flagged for a closer look

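The effect of the SOX2 class on PAX3 and PAX7 differed between the locations by the test of the difference itself, edgeR's quasi-likelihood test: -2.20 on the log2 scale for PAX3 and -1.88 for PAX7, frontonasal minus somite. PAX3 and PAX7 lay below unmarked cells in 3 of 3 frontonasal libraries and above them in 3 of 3 somite libraries. Not each of these directions was beyond counting error. In SOX2 cells at somite HH12 both genes were at 27.9 CPM (interval 15.6 to 46.1), against 25.5 and 24.0 CPM in unmarked cells. The SOX2 intervals of frontonasal HH15 and HH22 also took in the unmarked values.

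The PAX7 share of the UMIs of the pair went in opposite directions between the first and last stage of the 2 classes, by -37.9 percentage points in nasal mesenchyme (HH22 minus HH15) and by 53.9 in dermomyotome (HH20 minus HH12). With 1 library per stage this difference was not tested. Frontonasal cells with none of the 6 class markers also had a falling share, 69.5%, 49.2% and 41.3% at HH15, HH18 and HH22.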

How the results depend on the processing

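The calls of nasal mesenchyme against unmarked cells and against SOX2 cells for both genes, and of PAX3 in neural crest against unmarked cells, held under every alternative run for them. Over all values that answer a comparison, 355 kept their direction and side of the threshold, 32 lost the call, 10 gained one, 43 counts or shares moved and 14 turned direction. Of 277 other genes followed, 75 passed the threshold under all alternatives. The cause of a lost or gained call was not tested.

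Without the replicate block (the library), the calls were lost for dermomyotome (PAX3 1.53, PAX7 1.76), PAX7 in crest (1.51), PAX3 in crest against neural tube (1.42) and the SOX2 effect between locations (PAX3 -2.21, PAX7 -1.78), and the comparisons of cells with against without PAX3 or PAX7 called 0 genes in each class; the block changed no other call of PAX3 or PAX7. DESeq2 lost PAX3 in dermomyotome (1.51) and the SOX2 effect (-2.18 and -1.93) and gained PAX7 in SOX2 cells between locations (-2.16). With a marker minimum of 2 UMIs dermomyotome was at 1.73 (PAX3) and 1.36 (PAX7), crest against neural tube at 1.58 (PAX3) and the SOX2 effect at -4.15 and -2.39, all without a call, and PAX7 turned to -0.45 for dermomyotome against crest and 0.29 for nasal mesenchyme against dermomyotome. MUSTN1 alone gave PAX7 1.22, -0.22 and 0.092 in dermomyotome against unmarked cells, dermomyotome against crest and nasal mesenchyme against dermomyotome. Thinning lost PAX7 in dermomyotome (1.60) and the SOX2 effect (-2.04 and -2.51). Calls were gained with no filter on low counts (neural tube PAX3 1.01, dermomyotome against crest PAX3 -0.91, SOX2 cells between locations PAX7 -1.94), no cell filters (neural tube 1.09 and 1.08, SOX2 cells between locations PAX7 -2.27) and cells of 2 classes kept (neural tube PAX3 1.25).

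With 1 library left out, the log2 changes ranged from 1.34 to 1.78 (PAX3) and 1.23 to 2.34 (PAX7) in dermomyotome, 1.13 to 1.67 for PAX7 in crest, 1.02 to 2.17 for PAX3 in crest against neural tube, -0.16 to 1.30 for PAX3 in dermomyotome against neural tube, -0.44 to 0.89 for PAX7 in dermomyotome against crest, -0.76 to 0.047 (PAX3, with 0.031 and 0.047 above 0) and -0.82 to 0.049 (PAX7) in nasal mesenchyme against dermomyotome, -3.08 to -2.23 (PAX3) and -2.68 to -1.76 (PAX7) in SOX2 cells between locations, and -2.60 to -1.64 (PAX3) and -2.23 to -1.68 (PAX7) for the SOX2 effect. For cells with against without PAX3 or PAX7, crest gave 0 calls without HH20, where 73 of 2450 genes had an unadjusted p under 0.05. The genes called numbered 2 to 12 in dermomyotome, 0 to 13 in crest, 4 to 20 in neural tube and 13 to 76 in nasal mesenchyme. Those counts were 14, 43 and 23 in dermomyotome, neural tube and frontonasal SOX2 cells with no filter on low counts, 5 and 6 in dermomyotome and neural tube with doublets kept, 0, 0 and 5 in dermomyotome, neural tube and nasal mesenchyme after thinning, and 0, 0, 1, 3 and 3 with DESeq2.

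The PAX7 share differed by -15.4 to 11.5 percentage points between nasal mesenchyme and dermomyotome with 1 library left out (5.88 without HH22, 11.5 without HH20) and by 5.46 at 2 UMIs, and by -8.47 to 23.1 between dermomyotome and neural tube (-8.47 without HH20, -1.52 at 2 UMIs). Thinned shares moved beyond the unthinned interval in nasal mesenchyme (PAX3 2.92, 8.18 and 8.95%, PAX7 10.2, 7.66 and 4.48%), in dermomyotome at HH12 (10.2 and 5.51%) and for PAX7 at HH15 (14%), in crest at HH15 (24.0 and 9.29%) and HH20 (12.5 and 6.25%), and in neural tube at HH12 (4.39 and 6.14%), for PAX7 at HH15 (4.23%) and for PAX3 at HH20 (8.82%). With 1 library left out BMP4 ranged from -1.84 to 0.74 in nasal mesenchyme against SOX2 cells (above 0 without HH15), and HBBR ranged from -2.13 to 0.13, HBM from -2.15 to 0.36 and HBA1 from -1.83 to 0.25 in crest cells with PAX3 or PAX7 (above 0 without HH20). SLIT3 turned to 0.15 in thinned neural tube cells.

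SOX10 cells of the frontonasal libraries were not tested, as after the class rule 9, 4 and 2 cells were left. Small classes limit the rest: 47 to 59 dermomyotome cells per library after HH12, 1 UMI in most cells that carried a gene, and 1 library per stage.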

Other observations

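PAX3 and PAX7 were also read outside the 4 classes. Frontonasal surface ectoderm cells, named by ectoderm markers, held PAX3 in 10 of 71, 9 of 101 and 1 of 28 cells at HH15, HH18 and HH22 and PAX7 in 8, 12 and 0 of them, at median depths of 5712, 5237 and 4102 UMIs. After thinning the shares were 2.94%, 0% and 3.57% for PAX3 and 4.41%, 2.97% and 0% for PAX7. Thinned frontonasal blood cells held PAX3 in 0, 1 and 1 and PAX7 in 0, 0 and 0 of 26, 90 and 120 cells. Unthinned at HH18, PAX7 stood at 25.1 CPM in surface ectoderm (13.7 to 42.1) and 0 in blood (up to 6.43), and PAX3 at 21.5 CPM in surface ectoderm and 1.74 in blood. Somite neurons at HH20 held PAX3 in 7 of 150 cells (4.67%) and PAX7 in 4 (2.67%), and the 15, 22 and 28 frontonasal neurons at HH15, HH18 and HH22 held neither. Lateral plate cells at HH12 held PAX3 in 4 of 175 and PAX7 in 3.

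ALX4 or ALX1, the markers of nasal mesenchyme, were also found in 96, 214 and 121 somite cells at HH12, HH15 and HH20. PAX3 was found in 6, 6 and 11 of them and PAX7 in 9, 7 and 13.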
